A study of Mus musculus with 16 samples.

Results

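The adipocyte genes described here are 10 in number: *Adipoq*, *Plin1*, *Plin4*, *Cidec*, *Cidea*, *Lep*, *Fabp4*, *Pparg*, *Retn* and *Cfd*. They were picked by name, as genes used to mark adipocytes, out of the 55359 Ensembl genes counted in each mouse, and all 10 had enough reads to be tested in every comparison. RNA came from whole dorsal skin of wild-type C57Bl/6 mice (C57Bl/6N in the study's account) at 8 weeks, with the hair cycle in telogen, its resting phase. There were 4 UVB males, 4 no-UVB males, 4 UVB females and 4 no-UVB females; UVB mice had been exposed to ultraviolet B 3 times, with skin collected on day 5 at 6 h past the final exposure. No group carried a transgene or a deletion, and every mouse was a separate sample. The comparisons ask how these genes differed between UVB and no-UVB skin within each sex, and whether the difference depended on sex.

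White adipocytes store triglyceride in a single large droplet and lie in mouse skin as a layer beneath the dermis. The droplet surface carries perilipins, which control the access of lipases, and proteins of the CIDE family, which let small droplets fuse into larger ones. The cells also secrete hormones such as adiponectin and leptin, and PPARγ is the transcription factor that drives their differentiation. Dermal adipocytes are known to change in size with the hair cycle and to take part in skin defence and repair. In bulk skin, fewer adipocytes and less RNA per adipocyte cannot be told apart.

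Upstream sequences are shown for *Plin1* and *Cfd*, members on which the male comparison turned, and for *Lep*, whose upstream sequence held a match to a C/EBP element. Each runs 5′ to 3′ over the 250 bases before the first base of the canonical transcript in GRCm39, the build the counts were made on. Capitals mark matches on either strand to the letters searched, which were TTGCNNAA for C/EBP, AGGTCA for the core bound by PPAR and other nuclear receptors, TATAAA for the TATA box and CCAAT; a direct repeat of the core with 1 base between its copies was searched as well.
Plin1, chr7:79382719-79382968, minus strand: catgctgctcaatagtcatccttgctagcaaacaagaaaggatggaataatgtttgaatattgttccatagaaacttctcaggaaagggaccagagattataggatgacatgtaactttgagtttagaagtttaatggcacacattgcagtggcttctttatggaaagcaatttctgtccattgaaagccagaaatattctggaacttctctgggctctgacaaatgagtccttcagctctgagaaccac
Cfd, chr10:79726418-79726667, plus strand: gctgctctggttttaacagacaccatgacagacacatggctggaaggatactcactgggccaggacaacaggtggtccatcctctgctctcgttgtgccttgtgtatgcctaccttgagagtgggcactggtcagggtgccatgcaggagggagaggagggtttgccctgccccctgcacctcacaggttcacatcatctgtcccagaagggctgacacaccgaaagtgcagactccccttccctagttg
Lep, chr6:29059966-29060215, plus strand: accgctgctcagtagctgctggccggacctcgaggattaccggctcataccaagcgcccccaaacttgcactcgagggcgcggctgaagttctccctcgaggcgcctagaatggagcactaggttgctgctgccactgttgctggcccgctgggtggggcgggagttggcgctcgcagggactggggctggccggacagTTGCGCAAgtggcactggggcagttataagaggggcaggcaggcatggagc
The TTGCGCAA of *Lep* lay 51 to 44 bases before its start and was the C/EBP match of 1 of the 10 members, whereas 9.34% of 21770 upstream sequences of the same length held one. AGGTCA was likewise found in 1 of 10 members and in 13.1% of all sequences. CCAAT was present in 3 of 10 members and in 36.5% of all, and neither *Plin1* nor *Cfd* held a match to any of the letters. Neither the direct repeat (0.349% of all) nor TATAAA (11.9% of all) occurred in a member. These letters overlap in none of the members shown, and a match here is a description of sequence only.

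Levels are given as CPM, the reads on a gene relative to all reads on genes of that library, after TMM scaling between libraries. Each library held 16495776 to 33404831 reads on genes (median 21767339), and the lowest member level, *Lep* at 12.8 CPM in UVB male replicate 2, rests on 201 reads. A gene was said to rise or fall where the quasi-likelihood test of edgeR gave an adjusted p under 0.1 (Benjamini-Hochberg, over all genes tested). Log2 fold changes are given with their standard error (SE).

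**Figure D1:**
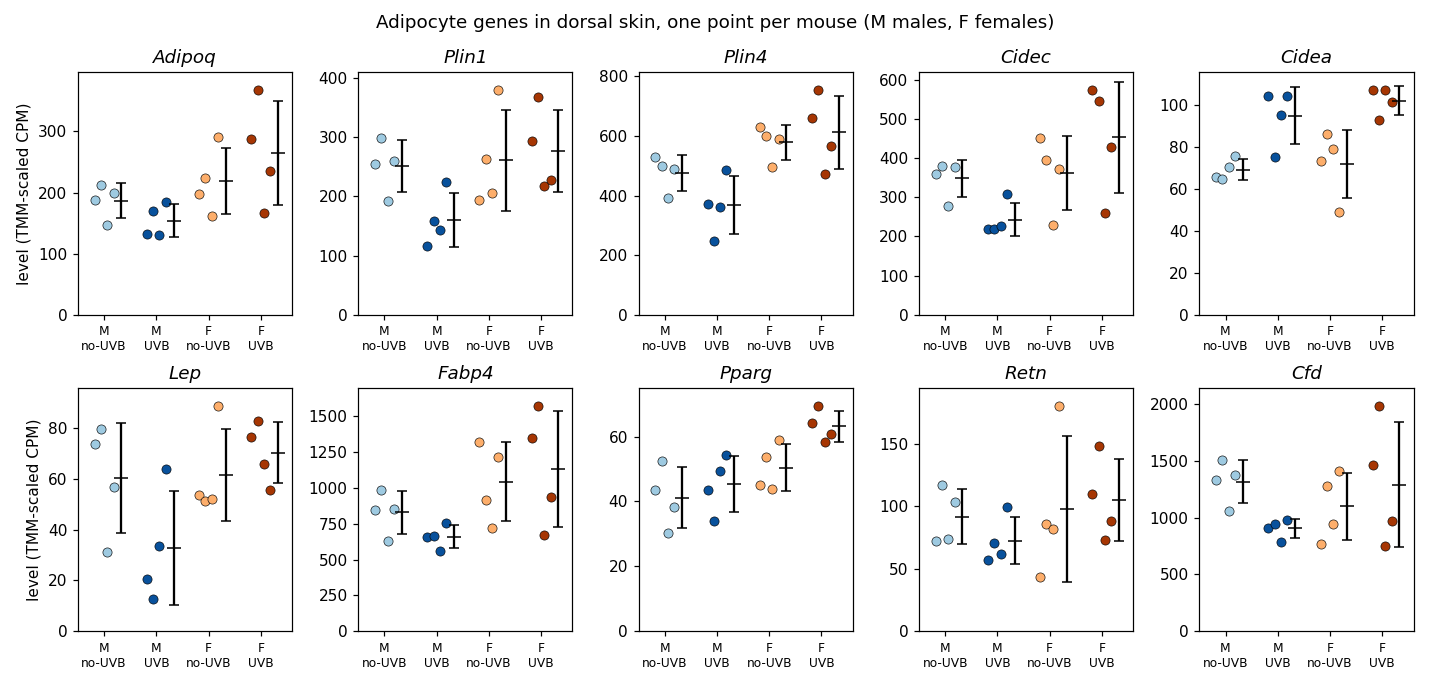
Level of each adipocyte gene (vertical axis, TMM-scaled CPM from 0) in the 4 mice of each group (horizontal axis: M, males; F, females), with replicates 1 to 4 from left to right as points and the mean ± SD of 4 mice as a bar beside them. *Cfd* in UVB males (789 to 982 CPM) lay below all no-UVB males (1056 to 1507 CPM), and *Cidea* in UVB females (92.6 to 107 CPM) lay above all no-UVB females (49.0 to 86.0 CPM).

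Divided by transcript length, which allows levels to be compared between genes, the members ranged widely. In no-UVB males *Cfd*, which encodes the serine protease adipsin (complement factor D), was the highest at 1402 ± 202 CPM per kb (SD, n = 4). *Fabp4*, the fatty acid binding protein of adipocytes, followed at 610 ± 108 CPM per kb. The hormones adiponectin and resistin and the droplet proteins formed a middle range. *Adipoq* stood at 141 ± 21.4, *Cidec* at 122 ± 16.6 and *Plin1* at 83.7 ± 14.6 CPM per kb. Below them came *Retn* at 79.7 ± 19.2, *Plin4* at 64.0 ± 8.03 and *Cidea* at 54.5 ± 4.02 CPM per kb. Leptin and the transcription factor were the least abundant, with *Lep* at 18.5 ± 6.66 and *Pparg* at 15.0 ± 3.45 CPM per kb. The ranges of *Cfd* and of *Fabp4* were separate from those of every member below them, while from *Adipoq* down to *Cidea* each member overlapped the next, as did *Lep* and *Pparg*. *Cfd*, *Fabp4*, *Adipoq* and *Cidec* held the same 4 leading places in all 4 groups. *Cidea* stood at the eighth place in no-UVB males and at the fifth in UVB males, with 74.8 ± 10.8 CPM per kb.

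Among males, the droplet genes *Plin1* and *Cidec*, the fatty acid binding protein *Fabp4* and the secreted adipsin *Cfd* were lower in UVB skin, and the droplet gene *Cidea* was higher. Thus 4 of 10 members fell and 1 rose, where 30.5% of the 16535 genes tested fell and 29% rose, so the share that fell was near that of all genes. The median log2 fold change of the members was −0.33, against −0.02 over all genes tested. No member passed a fold of 2, which 3.31% of all genes passed downward and 4.08% upward.

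*Plin1* (ENSMUSG00000030546.15, chromosome 7 from 79369966 to 79382718) encodes perilipin 1, the main coat protein of the adipocyte droplet. It stood at 254, 298, 192 and 259 CPM in the no-UVB males, replicates 1 to 4, and at 117, 158, 144 and 224 CPM in the UVB males. In UVB skin 3 of 4 males were below every no-UVB male, and replicate 4 lay within their range. *Plin1* fell by 0.62 (log2; SE 0.200, edgeR adjusted p = 0.0283). *Cidec* (ENSMUSG00000030278.12, chromosome 6 from 113400691 to 113412721), which promotes droplet fusion, stood at 360, 379, 278 and 376 CPM without UVB and at 220, 219, 226 and 307 CPM with it. Again UVB replicate 4 alone reached into the no-UVB range. *Cidec* fell by 0.50 (log2; SE 0.127, edgeR adjusted p = 0.00783), a level 1.41-fold lower. *Plin4*, a perilipin of small droplets, had 529, 498, 391 and 489 CPM in no-UVB males against 373, 248, 363 and 487 CPM in UVB males. Its log2 fold change of −0.35 (SE 0.180) did not pass the test (edgeR adjusted p = 0.129), although 3 of 4 UVB males were below all no-UVB males.

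*Cidea* (ENSMUSG00000024526.10, chromosome 18 from 67476317 to 67501224) belongs to the same family of droplet proteins as *Cidec* and moved the other way. Its levels were 65.7, 64.5, 70.2 and 75.7 CPM in no-UVB males and 104, 75.3, 95.1 and 104 CPM in UVB males, so that 3 of 4 UVB males exceeded every no-UVB male. *Cidea* rose by 0.48 on the log2 scale (SE 0.0972, edgeR adjusted p = 0.00178), or 1.39-fold. Besides adipocytes, *Cidea* is known from brown fat and from sebaceous glands. *Ucp1*, which defines brown adipocytes, had at most 3 counts in any mouse. Of 12 sebaceous gland genes, 5 rose and 2 fell in males, and their summed level went from 3193 to 3431 CPM without UVB to 3923 to 4754 CPM with it; the part of sebaceous cells in the *Cidea* result was not tested.

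Among the secreted products, *Cfd* (ENSMUSG00000061780.7, chromosome 10 from 79726668 to 79728496) showed the clearest difference. It stood at 1330, 1507, 1056 and 1378 CPM in no-UVB males and at 908, 941, 789 and 982 CPM in UVB males. The groups did not overlap, which held in this direction for 1 of 10 members and for 24.3% of all genes tested. *Cfd* fell by 0.52 on the log2 scale (SE 0.111, edgeR adjusted p = 0.00228), a level 1.43-fold lower. *Adipoq* (ENSMUSG00000022878.6, chromosome 16 from 22964106 to 22976810) had 188, 212, 147 and 200 CPM without UVB and 133, 169, 130 and 184 CPM with it. The ranges overlapped, and the log2 fold change of −0.26 (SE 0.137, edgeR adjusted p = 0.139) did not pass.

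*Lep*, the hormone that reports fat stores to the brain, had the largest fitted difference of the members in males and the largest error. No-UVB males had 74.0, 79.6, 31.1 and 57.0 CPM, and UVB males had 20.4, 12.8, 33.6 and 64.1 CPM. Mice of both groups fell within the other's range, and the log2 fold change was −0.86 with an SE of 0.529 (edgeR adjusted p = 0.213). *Retn*, which encodes a hormone secreted by mouse adipocytes, had 72.4, 117, 73.4 and 103 CPM without UVB and 57.2, 70.8, 62.0 and 99.3 CPM with it. Its log2 fold change was −0.32 (SE 0.215, edgeR adjusted p = 0.252).

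*Fabp4* (ENSMUSG00000062515.4, chromosome 3 from 10268785 to 10273737) stood at 846, 988, 631 and 850 CPM in no-UVB males and at 655, 662, 560 and 755 CPM in UVB males. It fell by 0.31 on the log2 scale (SE 0.129, edgeR adjusted p = 0.0629), yet the call held in 2 of the 8 fits that left out 1 mouse. With UVB replicate 1, 2 or 3 left out, its edgeR adjusted p was 0.117, 0.108 or 0.166, and with no-UVB replicate 1, 2 or 4 left out it was 0.117, 0.195 or 0.115. *Pparg* had 43.5, 52.6, 30.1 and 38.3 CPM without UVB and 43.4, 34.1, 49.4 and 54.4 CPM with it. Its log2 fold change of 0.16 (SE 0.186, edgeR adjusted p = 0.488) had the opposite sign to that of most members. *Plin1*, *Cidec*, *Cidea* and *Cfd* passed in 8 of 8 such fits. Without the filter on low counts *Plin1* (edgeR adjusted p = 0.127) and *Fabp4* (0.168) were lost, as was *Fabp4* (0.259) with all 16 mice in a single fit, which added *Plin4* (0.0877) and *Lep* (0.0818), while upper quartile scaling added *Adipoq* (0.0635) and *Plin4* (0.0748). UVB replicate 4 was the highest UVB male for 9 of 10 members, and without it 8 members fell: *Plin1*, *Cidec*, *Fabp4* and *Cfd*, joined by *Adipoq* (−0.35), *Plin4* (−0.51), *Lep* (−1.40) and *Retn* (−0.50, log2 fold changes). The median over the 16905 genes tested in that fit was −0.021. The share of all genes that fell there was not computed, so the count of 8 has no background beside it.

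**Figure D2:**
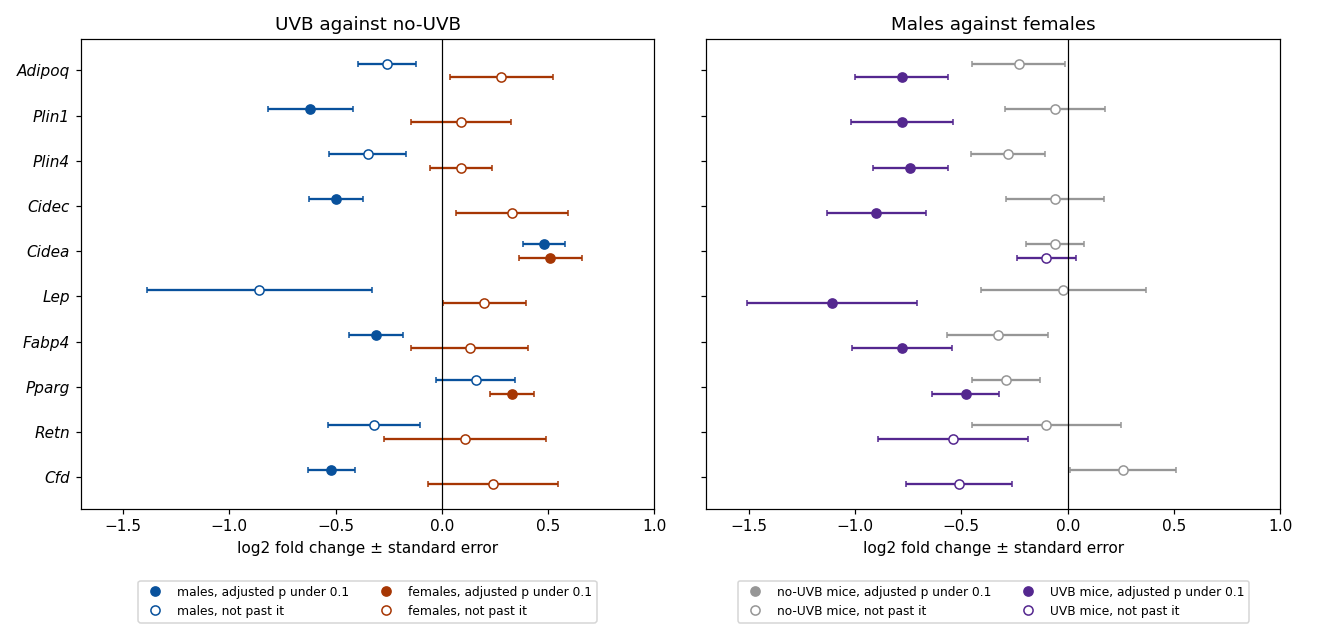
Log2 fold change (horizontal axis) ± SE of each adipocyte gene, for UVB against no-UVB mice within each sex (left) and for males against females within each treatment (right), with filled points at an edgeR adjusted p under 0.1. The 8 members to the left of 0 in males (−0.26 to −0.86) were all to the right of it in females, though none of these was called there. The female sign of *Plin1*, *Plin4*, *Fabp4*, *Retn* and *Cfd* turned with single mice left out, and 0 of 10 interactions of UVB and sex passed. Of the members, 7 (3 without female UVB replicate 2) were called lower in UVB males than in UVB females and 0 in no-UVB males, where 12.5% and 4.58% of all genes were.

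Other lists of adipocyte metabolism were mixed in males, and summed levels did not always follow the counts of genes. In the lipid droplet and lipolysis list 9 of 16 genes fell and 6 rose (median log2 fold change −0.38), but its summed level was 1838 to 2211 CPM without UVB and 2206 to 2607 CPM with it. *Adrb3*, the adrenergic receptor that starts lipolysis, fell by 1.35 and *G0s2*, an inhibitor of the lipase ATGL, fell by 0.97 (log2 values, edgeR adjusted p = 0.00159 and 0.0089). *Hilpda*, another ATGL inhibitor, and *Abhd5*, the co-activator of ATGL, both rose by 0.72 (edgeR adjusted p = 0.0262 and 5.88e-06). Of 15 genes for uptake of lipid and glucose, 12 fell and 1 rose (median −0.34), and the sums overlapped (2874 to 3809 against 3215 to 3715 CPM). *Trarg1*, which acts in traffic of the insulin-sensitive glucose transporter, fell by 0.93, while *Fabp5*, the fatty acid binding protein of epidermis, rose by 1.91 (edgeR adjusted p = 0.00397 and 4.74e-07).

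Among 14 transcription factors of adipocytes 8 fell and 3 rose in males (median −0.31), with overlapping sums of 858 to 995 and 926 to 969 CPM. *Cebpd*, a factor of early differentiation, fell by 1.50 and *Klf15* fell by 0.84, whereas *Cebpb* rose by 0.33 and *Ppard* rose by 0.57 (edgeR adjusted p = 0.0162, 0.029, 0.054 and 5.16e-05). Of 14 further adipokines and receptors 5 fell and 1 rose (median −0.33), a share fallen near that of all genes, and the sums were 1508 to 2101 and 1310 to 1541 CPM. *Cdh13*, which binds adiponectin, had a log2 fold change of −1.04 (edgeR adjusted p = 5.39e-06). In fatty acid and triglyceride synthesis 5 of 18 genes rose and 3 fell (median 0.03), with sums of 7216 to 10928 and 9869 to 13536 CPM. There *Elovl6* rose by 1.60 and *Pck1*, which makes glycerol backbone for triglyceride, fell by 0.93 (edgeR adjusted p = 0.00055 and 0.00806).

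**Figure D3:**
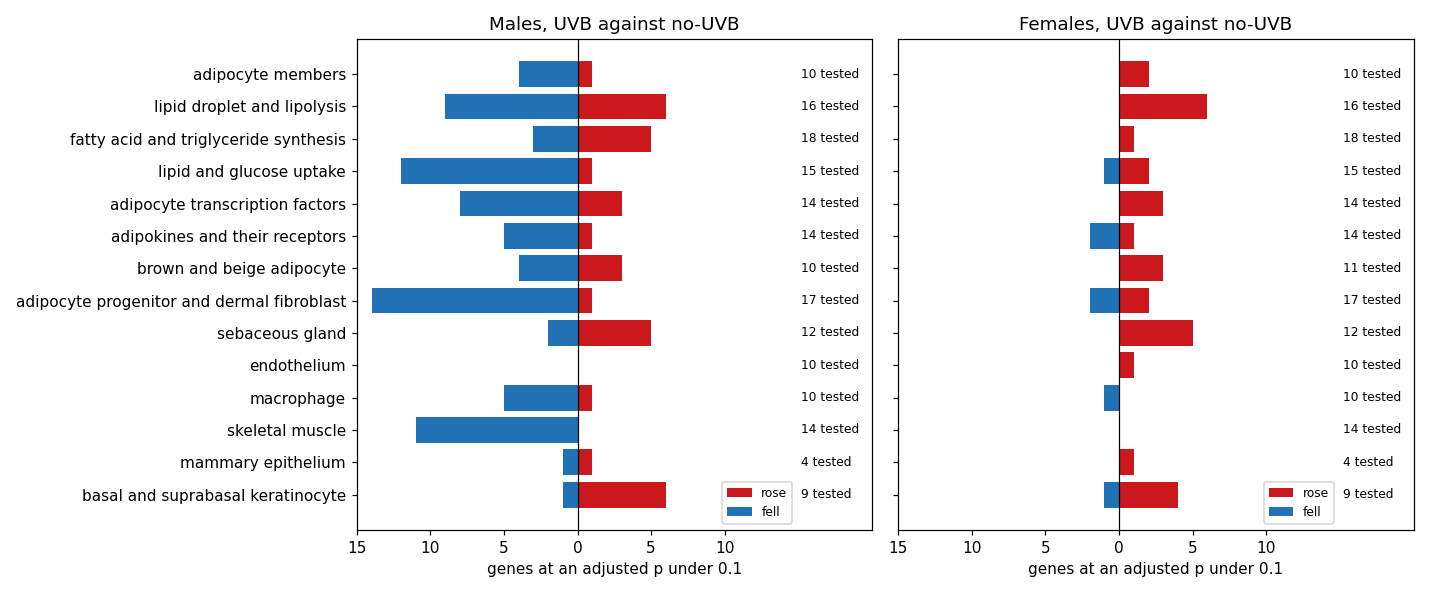
Number of genes (horizontal axis) that rose (right of 0) or fell (left of 0) at an edgeR adjusted p under 0.1 in UVB against no-UVB males and females, for the adipocyte genes and 13 further lists, with the number tested beside each bar. Among the adipocyte genes 4 fell and 1 rose in males (30.5% and 29% of all genes tested), and 0 fell and 2 rose in females (10.6% and 12.8% of all genes tested).

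Lists of other cell types moved in males too. The progenitor and dermal fibroblast list fell in 14 of 17 genes, and its summed level, mostly collagen, went from between 91227 and 100639 CPM to between 33658 and 46108 CPM. Skeletal muscle genes fell in 11 of 14, with sums of 25243 to 31457 CPM without UVB and 17910 to 21865 CPM with it. Of 9 keratinocyte genes tested, 6 rose and 1 fell, with sums of 9848 to 14754 CPM and 22735 to 32538 CPM. For macrophage genes 5 of 10 fell and 1 rose, and of 10 endothelial genes 0 rose and 0 fell. The summed level of the 10 adipocyte genes was 2899 to 4195 CPM without UVB and 2452 to 3260 CPM with it. The part of these other cell types in the male adipocyte result was not tested. With the 100 most abundant genes left out of the scaling, 4 members fell and 1 rose in males, as before.

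In females the members did not fall. Of the 10 genes 2 rose (*Cidea* and *Pparg*) and 0 fell, where 12.8% of the 16883 genes tested rose and 10.6% fell. All 10 fitted log2 fold changes were above 0 (0.09 to 0.51, median 0.22), against a median of 0.00 over all genes tested. The count of 2, with 0 of these lower, was the same at an unadjusted p under 0.05, which 30.3% of all genes met.

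*Cidea* stood at 73.0, 86.0, 79.1 and 49.0 CPM in the no-UVB females, replicates 1 to 4, and at 107, 92.6, 107 and 101 CPM in the UVB females. Every UVB female exceeded every no-UVB female, as did 11.1% of all genes tested. *Cidea* rose by 0.51 on the log2 scale (SE 0.147, edgeR adjusted p = 0.0427), or 1.43-fold, which lies close to its value in males. Of the sebaceous gland genes 5 of 12 rose and 0 fell in females, with sums of 2663 to 4531 CPM without UVB and 3557 to 4848 CPM with it; their part was not tested here either. *Pparg* (ENSMUSG00000000440.13, chromosome 6 from 115337675 to 115468268) had 45.2, 53.8, 43.7 and 59.0 CPM without UVB and 64.3, 69.4, 58.3 and 60.7 CPM with it. UVB replicate 3 alone lay within the no-UVB range, and *Pparg* rose by 0.33 (SE 0.105, edgeR adjusted p = 0.0572). Both calls depended on single mice. *Cidea* missed the threshold without UVB replicate 1 or 3 (edgeR adjusted p = 0.107 and 0.105), and *Pparg* missed it without UVB replicate 1 or 2 (0.122 and 0.11) or no-UVB replicate 1 or 3 (0.118 and 0.135), and also with all 16 mice in a single fit (0.153).

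The genes that fell in males showed wide overlap in females. *Plin1* had 194, 264, 206 and 380 CPM in no-UVB females and 293, 368, 218 and 227 CPM in UVB females, with every UVB mouse inside the no-UVB range. Its log2 fold change was 0.09 (SE 0.236, edgeR adjusted p = 0.835). *Cidec* stood at 452, 395, 228 and 371 CPM without UVB and at 574, 546, 261 and 429 CPM with it. The log2 fold change of *Cidec* was 0.33 (SE 0.263, edgeR adjusted p = 0.435). *Cfd* had 767, 1283, 945 and 1408 CPM in no-UVB females and 1460, 1983, 749 and 966 CPM in UVB females, so that UVB mice lay both above and below the whole no-UVB group. That spread gave a log2 fold change of 0.24 with an SE of 0.304 (edgeR adjusted p = 0.646), where the SE in males was 0.111.

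*Fabp4* also scattered on both sides, from 718 to 1323 CPM in no-UVB females and from 673 to 1572 CPM in UVB females (log2 fold change 0.13, SE 0.276). For *Plin4* the levels were 631, 601, 495 and 590 CPM without UVB and 661, 755, 471 and 565 CPM with it (0.09, SE 0.148). *Adipoq* had 198, 224, 162 and 291 CPM against 287, 368, 167 and 236 CPM (0.28, SE 0.242). UVB replicate 2 was the highest UVB female for 8 of 10 members and replicate 3 the lowest for 8. Without replicate 2 the log2 fold changes of *Plin1* (−0.08), *Plin4* (−0.03), *Fabp4* (−0.07), *Retn* (−0.11) and *Cfd* (−0.05) turned below 0. *Plin1* (−0.03) and *Retn* (−0.14) did so also without no-UVB replicate 1, and *Plin1* (−0.01) and *Fabp4* (−0.01) without no-UVB replicate 3, so the sign of these female values rests on single mice. *Lep* had 53.9, 51.4, 52.1 and 88.8 CPM in no-UVB females and 76.7, 83.1, 66.0 and 55.7 CPM in UVB females (0.20, SE 0.194, edgeR adjusted p = 0.521). *Lep* rose by 0.43 when no-UVB replicate 4 was left out (edgeR adjusted p = 0.0577). *Retn* ranged from 43.0 to 180 CPM without UVB and from 72.9 to 148 CPM with it (0.11, SE 0.381).

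Of the lists of adipocyte metabolism, that of droplet and lipolysis genes held the most calls in females. Of 16 droplet and lipolysis genes 6 rose and 0 fell (median 0.14), and their summed level went from 1855 to 2159 CPM without UVB to 2304 to 2884 CPM with it, without overlap. *Mgll*, the monoglyceride lipase, rose by 0.64 and *Hilpda* by 0.75 (log2 values, edgeR adjusted p = 0.0301 and 0.0555). *Mgll* averaged 767 CPM over the 16 mice, a large part of that sum. Of the 16 genes 12 had fitted values above 0 and 4 below it. *Adrb3* (−0.30, edgeR adjusted p = 0.594) and *G0s2* (−0.24, 0.538) were among those below it and did not pass. The part of adipocytes in the higher sum was not tested. In the uptake list 2 of 15 rose and 1 fell, with *Fabp5* up by 0.93 (edgeR adjusted p = 0.00115). Of the transcription factors 3 of 14 rose and 0 fell, *Cebpa* by 0.29 and *Cebpb* by 0.31 among them (edgeR adjusted p = 0.064 and 0.0199). Of the adipokines and receptors 1 of 14 rose and 2 fell, namely *Adipor1* by 0.22, *Cdh13* by −0.79 and *Lepr*, the leptin receptor, by −0.44 (edgeR adjusted p = 0.0813, 0.000332 and 0.0183). In triglyceride synthesis 1 of 18 rose and 0 fell, which was *Dgat1* by 0.57 (edgeR adjusted p = 0.00528). The fibroblast list rose in 2 and fell in 2 of 17 genes, and skeletal muscle genes rose in 0 and fell in 0 of 14. Of 9 keratinocyte genes tested 4 rose and 1 fell, with sums of 8496 to 12774 CPM without UVB and 13100 to 17081 CPM with it, which did not overlap. There *Krt1*, a keratin of suprabasal cells, rose by 1.99 and *Flg*, which encodes filaggrin, rose by 2.88 (log2 values, edgeR adjusted p = 0.0011 and 0.000386). *Krt15* fell by 1.11 (edgeR adjusted p = 0.012), and 4 of the 9 fitted values were below 0, so these genes did not rise as a whole. The part of these cells in the female adipocyte values was not tested.

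The difference between the male and female responses was tested itself, as the interaction of UVB and sex over all 16 mice. All 10 fitted interaction values were below 0 (−0.04 to −1.08), with a median of −0.51 against −0.02 over the 17406 genes tested, a negative value standing for a lower fitted response in males. None passed the edgeR test at an adjusted p under 0.1 (0 of 10), where 4.25% of all genes passed in this direction. At an unadjusted p under 0.05 there were 3 members, *Plin1*, *Cidec* and *Cfd*, against 20.8% of all genes in either direction, and with the Wald test of DESeq2 1 member passed, *Cidec*. *Cidec* had an interaction of −0.84 (SE 0.325, edgeR adjusted p = 0.159), *Cfd* of −0.77 (SE 0.351, 0.226), *Plin1* of −0.73 (SE 0.337, 0.233) and *Lep* of −1.08 (SE 0.557, 0.285). *Cidea*, with −0.04 (SE 0.194, edgeR adjusted p = 0.92), was the nearest to 0, and its sign turned without female no-UVB replicate 4 (0.12) or male UVB replicate 2 (0.05). Leaving out female UVB replicate 3 took *Cidec* (−1.02, edgeR adjusted p = 0.0478) and *Cfd* (−0.94, 0.084) past the threshold. *Plin1* passed without female no-UVB replicate 4 (−0.95, edgeR adjusted p = 0.0892) and *Lep* without male UVB replicate 4 (−1.63, 0.0725). Genes of other cell types had negative interactions too. Of 14 skeletal muscle genes 9 passed below 0 and 0 above it (median −0.63), and of 17 fibroblast genes 5 passed below 0 and 1 above it (median −0.41), whereas 0 of 9 keratinocyte genes passed below 0 and 1 above it (median 0.50). Their part in the interaction values of the adipocyte genes was not tested.

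Without UVB no adipocyte gene was called between the sexes, which is near the share of all genes called and does not show that their levels were alike. None of the 10 passed between no-UVB males and no-UVB females, by edgeR, by DESeq2 or at an unadjusted p under 0.05 (0 in each case, the last met by 22.2% of all genes), where 4.58% of the 17406 genes were lower and 7.21% higher in males. The log2 fold changes of males against females ran from −0.33 for *Fabp4* (SE 0.236) to 0.26 for *Cfd* (SE 0.248), and their median was −0.08. *Pparg* had the smallest edgeR adjusted p, 0.299, at −0.29 (SE 0.158). In no member were the 2 groups free of overlap, against 5.17% of all genes lower and 7.8% higher in males.

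After UVB, males had less of most adipocyte transcripts than females. Of the 10 members 7 were lower in UVB males than in UVB females and 0 were higher, against 12.5% and 12.8% of all genes tested. The median log2 fold change of the members was −0.76, and that of all genes −0.01. Among the droplet genes *Cidec* differed by −0.90 (SE 0.232, edgeR adjusted p = 0.017), *Plin1* by −0.78 (SE 0.239, 0.0358) and *Plin4* by −0.74 (SE 0.175, 0.0104). For each of these, 3 of 4 UVB males were below every UVB female. *Adipoq* differed by −0.78 (SE 0.219, edgeR adjusted p = 0.0244) and *Lep* by −1.11 (SE 0.399, 0.0714), a level 2.15-fold lower. *Fabp4* differed by −0.78 (SE 0.237, edgeR adjusted p = 0.0331). *Pparg* differed by −0.48 (SE 0.158, edgeR adjusted p = 0.0479), and its UVB males, from 34.1 to 54.4 CPM, were all below its UVB females, from 58.3 to 69.4 CPM. *Pparg* was 1 member of 10 without overlap in this direction, against 9.76% of all genes.

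*Cidea*, *Retn* and *Cfd* did not pass between the sexes after UVB. Their log2 fold changes were −0.10 (SE 0.137, edgeR adjusted p = 0.642), −0.54 (SE 0.351, 0.312) and −0.51 (SE 0.249, 0.17). *Adipoq*, *Plin4* and *Cidec* held in all 16 fits with 1 mouse left out. Without female UVB replicate 2, the highest for most members, 3 members remained past the threshold, as *Plin1* (edgeR adjusted p = 0.116), *Lep* (0.157), *Fabp4* (0.112) and *Pparg* (0.117) were lost. Without male UVB replicate 1, *Plin1* (edgeR adjusted p = 0.109), *Lep* (0.181) and *Pparg* (0.114) were lost, and without male UVB replicate 2 *Lep* (0.153) and *Pparg* (0.133). *Lep* was also lost without female UVB replicate 1 (0.137) or male UVB replicate 3 (0.122), and *Cfd* passed without female UVB replicate 3 (−0.70, edgeR adjusted p = 0.038). Without the filter on low counts *Plin1* (edgeR adjusted p = 0.104), *Lep* (0.179), *Fabp4* (0.101) and *Pparg* (0.108) were lost. Other cell types differed between the same mice. Of 9 keratinocyte genes 7 were higher in UVB males and 0 lower, with sums of 22735 to 32538 CPM against 13100 to 17081 CPM in UVB females. Of 17 fibroblast genes 5 were higher and 3 lower, with sums of 33658 to 46108 CPM against 15654 to 26605 CPM. In no-UVB skin the fibroblast sums were 91227 to 100639 CPM in males and 23402 to 24323 CPM in females. Of 14 skeletal muscle genes 0 were higher and 3 lower. The part of these cell types in the lower adipocyte levels of UVB males was not tested. The male and female UVB mice enter both this comparison and the responses above, so these results share samples.

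**Figure D4:**
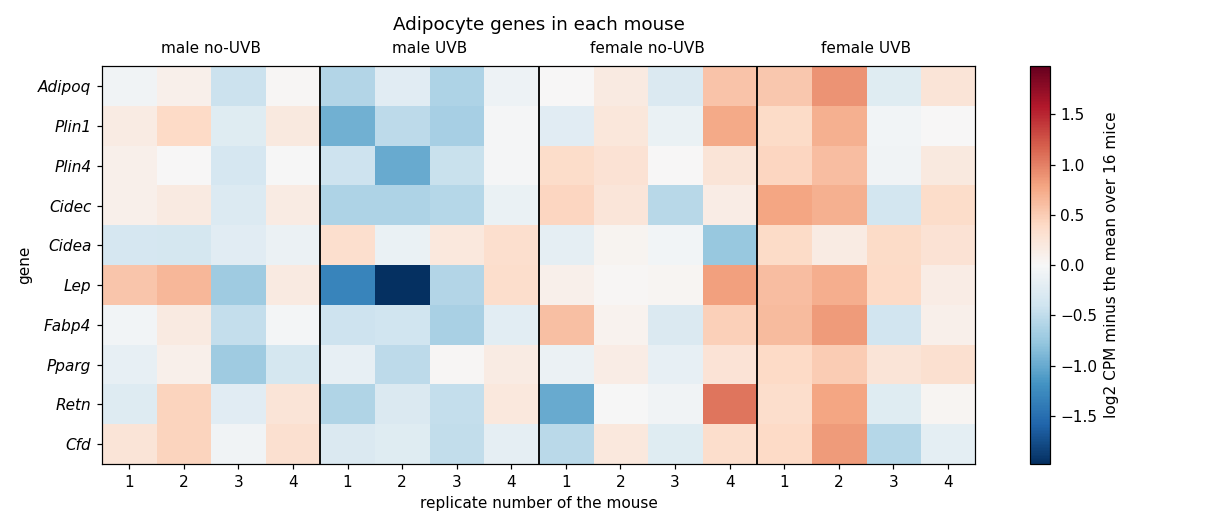
Log2 CPM of each adipocyte gene (rows) in each of 16 mice (columns, by group and replicate number), minus the mean of that gene over the 16 mice, with red above and blue below the mean. Within a group the members other than *Cidea* tended to be high or low in the same mouse, as in female UVB replicate 2, the highest of its group for 8 of 10 members.

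The members varied together from mouse to mouse, with *Cidea* as the exception. Over the 16 mice the log2 CPM of each of the other 9 correlated with the mean of the remaining members at a Pearson r of 0.67 (*Retn*) to 0.92 (*Adipoq*), and *Cidea* at −0.15. When each group mean was first removed, the values were 0.62 to 0.83, and −0.29 for *Cidea*. Pairs without *Cidea* had a median r of 0.70 (36 pairs, 0.33 to 0.91), and pairs with it −0.15 (9 pairs, −0.37 to 0.33). These points share library and depth and are given as a description. In mouse terms, no-UVB male replicate 2 was the highest of its group for 8 members and replicate 3 the lowest for 8. Among no-UVB females replicate 4 was the highest for 6 members, and its *Cidea*, at 49.0 CPM, was the lowest. Mice that were high in the adipocyte genes also stood apart in sums of other lists. Female UVB replicate 2 had the highest endothelial (763 CPM, others 517 to 612), macrophage (2329, others 1569 to 2043) and fibroblast sums (26605, others 15654 to 20654) of its group. It also had the lowest sebaceous sum (3557 CPM, others 4658 to 4848) and the largest share of unmapped reads (16.4%, others at most 15.1%). Female no-UVB replicate 4 had the highest macrophage sum (3049 CPM, others 1730 to 2183) and the lowest keratinocyte (8496, others 11587 to 12774) and sebaceous sums (2663, others 3800 to 4531). Male UVB replicate 4 had the lowest keratinocyte sum of its group (22735 CPM, others 28402 to 32538), as had no-UVB male replicate 2 (9848, others 11869 to 14754). The part of these differences in the shared variation was not tested.

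Over 15118 genes, those with the pattern most like the mean of the members were *Lipe* (r = 0.963), *Adhfe1* (0.947), *Pde3b* (0.946), *Aoc3* (0.927), *Apol6* (0.925), *Sucnr1* (0.919), *Dhdh* (0.917) and *Eepd1* (0.915). *Lipe* encodes hormone-sensitive lipase and *Pde3b* the phosphodiesterase through which insulin restrains lipolysis. *Lipe* fell by 0.44 in males (SE 0.141, edgeR adjusted p = 0.0241), had a log2 fold change of 0.21 in females (SE 0.202, 0.52) and was lower by −0.76 in UVB males than in UVB females (SE 0.192, 0.0149). *Lipe* was picked for its likeness to the members over these same mice, group differences included. Its group differences therefore largely follow from that choice and are no separate result. With group means removed, 3 of these 8 (*Pde3b*, *Lipe* and *Eepd1*) stayed among the first 8.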

How the data were processed

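RNA from the dorsal skin of 16 mice was sequenced, and the authors deposited STAR gene counts per mouse, whole numbers without normalization on GRCm39. Counts of the strand read by the directional kit were used, as the other strand held 3.63 to 4.23% of gene reads. GENCODE M39 named 54749 of 55359 identifiers. Counts were filtered with filterByExpr, scaled by TMM and tested with the robust quasi-likelihood test of edgeR 4.0.16 in R 4.3.3 (DESeq2 1.42.0 and apeglm 1.24.0 as alternatives), within each sex for the UVB response and over 16 mice otherwise, with no covariate. The SE is the log2 fold change over the root of its F. Libraries of a group differed beyond sampling noise (chi-square per degree of freedom 10.4 to 109), and each mouse was 1 replicate. The procedure was tested on simulated data. The members, the 13 other lists and the alternatives were chosen with earlier results of these data known. From each list the 2 lowest and 2 highest called genes with a mean of at least 1 CPM could be named, and the 8 genes most alike in pattern. Alternatives were both strands, other scalings and filters, thinned counts (seed 1), other thresholds and tests, the replicate number as a block and leaving out each mouse. Scaling without the 100 most abundant genes was chosen after seeing the data. Single-cell data were not used here, and 1 listed gene and some upstream sequences are not reported here.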

Additional observations from a re-analysis of the deposited data

Results flagged for a closer look

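In each of 40 groups (10 members in 4 groups of 4 mice) the highest and lowest mouse were compared with the rest, and 2 mice stood apart; chance gives about 1 in 20 groups. *Cidec* in UVB male replicate 4 stood at 307 CPM, while the other UVB males had 219 to 226 CPM. *Lep* in no-UVB female replicate 4 stood at 88.8 CPM, while the other no-UVB females had 51.4 to 53.9 CPM. Counting these genes, the male was the highest of its group for 9 of 10 members and the female for 6 of 10. Without the male the fall of *Cidec* in males was 0.62 on the log2 scale, and without the female *Lep* rose by 0.43 in females (edgeR adjusted p = 0.0577).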

How the results depend on the processing

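Among the alternatives other than leaving out a mouse, single members kept their direction and their side of the threshold in 511 values, passed it newly in 10, lost it in 18 and turned in 1, which was *Lep* in no-UVB males against no-UVB females (0.01 with the replicate block). With each mouse left out in turn these counts were 584, 12, 23 and 21. No alternative moved the median of all genes by more than 0.1 on the log2 scale. Members that fell in males numbered 4, but 2 without the filter on low counts (genes with any read), 6 with the replicate block, 6 with upper quartile scaling, 5 with the DESeq2 Wald test, 5 with 16 mice in a single fit, 3 at an adjusted p under 0.05, 0 at a shrunken fold change past 1 (DESeq2 with apeglm) and 3 to 8 with a mouse left out. Members that rose in males numbered 1, but 0 by the apeglm rule. Those that rose in females numbered 2, but 1 at an adjusted p under 0.05, 1 with 16 mice in a single fit, 0 by the apeglm rule, 3 with the replicate block and 0 to 3 with a mouse left out (0 without UVB replicate 1, 3 without no-UVB replicate 4). For the interaction 0 became 1 (*Cidec*) with the DESeq2 Wald test, 1 (*Cidec*) with the replicate block and 0 to 2 with a mouse left out. After UVB the 7 members lower in males became 3 without the count filter, 6 at an adjusted p under 0.05 and 3 to 8 with a mouse left out. Over mice left out, values changed sign in females for *Plin1* (−0.08 to 0.32), *Plin4* (−0.03 to 0.20), *Fabp4* (−0.07 to 0.31), *Retn* (−0.14 to 0.58) and *Cfd* (−0.05 to 0.43). Between no-UVB sexes they did for *Plin1* (−0.17 to 0.16), *Cidec* (−0.24 to 0.07), *Cidea* (−0.22 to 0.02), *Lep* (−0.19 to 0.19) and *Retn* (−0.34 to 0.35), and in the interaction for *Cidea* (−0.13 to 0.12). Of the 8 genes most alike in pattern, 3 were shared with group means removed and 8 with upper quartile scaling. Same-numbered mice had correlations of −0.12 to 0.22 (24 pairs, median 0.02), not all above 0.1, and pairs with other numbers had a median of −0.00 (72 pairs). The labels state no shared litter or day, so the numbers were not taken to pair the mice. Of 16 mice 8 correlated best with their own number, a hint from the data and not the design. The number expected without any pairing was not computed. The share of all genes called was not computed for the alternatives, and the cause of the changes in member counts and signs was not tested. With 4 mice a group, p-values measure the spread between these mice, and a value short of the threshold does not show the absence of a difference.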

Other observations

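Genes of brown and beige adipocytes were measured beside the white adipocyte genes. In males 3 of 10 tested rose and 4 fell, and in females 3 of 11 rose and 0 fell. The median log2 fold change of the list was −0.16 in males and −0.04 in females. Its summed level was nonetheless higher with UVB (184 to 235 against 361 to 449 CPM in males, 148 to 190 against 261 to 341 CPM in females), and *Elovl3* alone moved from a mean of 59.7 to 294 CPM in males, more than the list as a whole gained there, and from 43.6 to 152 CPM in females. *Dio2*, the deiodinase that activates thyroid hormone, rose by 3.46 on the log2 scale in males and by 2.18 in females (edgeR adjusted p = 8.61e-07 and 0.00894). *Elovl3*, a fatty acid elongase of brown fat that is also known from sebaceous glands and hair follicles, rose by 2.32 in males and by 1.81 in females (3.54e-06 and 0.00162). *Zic1* fell by 0.84 and *Cox7a1*, a subunit of cytochrome c oxidase in muscle and brown fat, fell by 0.59 in males (0.00997 and 0.00149). *Ucp1* was at most at 3 counts in any mouse. Of 10 mammary epithelial genes 4 were tested, of which 1 rose and 1 fell in males and 1 rose and 0 fell in females; the milk protein genes *Csn2* and *Wap* had at most 2 and 0 counts in any mouse. *Mc5r*, a receptor of sebaceous gland, averaged 18.8 to 26.9 CPM over the 4 groups.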
